A study of Homo sapiens with 2 samples.

Results

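The transcription factors that drive epithelial-mesenchymal transition (EMT) were compared in OECM1, an established cell line from a head and neck cancer, between cells with a let-7i expression vector and cells with an empty vector. The 9 genes were ZEB1, ZEB2, SNAI1, SNAI2, TWIST1, TWIST2, FOXC2, TCF4 and PRRX1, of 19775 genes that had a probe set carrying no other symbol. Every probe set whose gene symbol in the platform annotation is 1 of these 9 was taken, which gave 27 of 54675 probe sets. The OECM1-let7i cells were stably transfected with pmCherry-let7i, which expresses the microRNA let-7i with the red fluorescent protein mCherry. The OECM1-mCherry cells carried the pmR-mCherry vector without the microRNA, and both cultures grew in RPMI with fetal bovine serum. Whether a culture was a clone or a pool of transfected cells, and which promoter drives let-7i, is not given in the sources used here. With 1 Affymetrix array for each group, differences could not be checked on replicates and no p-value was computed.

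EMT is the passage of an epithelial cell to a mobile, mesenchymal state. ZEB1 and ZEB2 are zinc finger repressors, and SNAI1 (Snail) and SNAI2 (Slug) are zinc finger repressors of the Snail family. All 4 bind E-boxes in the promoters of epithelial genes such as CDH1, which encodes E-cadherin. TWIST1, TWIST2 and TCF4 (also called E2-2) are basic helix-loop-helix factors that bind E-boxes as dimers, FOXC2 is a forkhead factor and PRRX1 a paired-type homeobox factor. ZEB1 and ZEB2 are held down in epithelial cells by the miR-200 family and miR-205, and they in turn repress the miR-200 genes.

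The mature microRNA that the vector expresses is shown with the known microRNA repressors of ZEB1 and ZEB2, because the highest ratios among the 9 factors at the floor used here were in these genes. Capitals mark the seed (bases 2 to 8), the part that pairs with target messengers. Sequences are from RefSeq (GRCh38.p14).
hsa-let-7i-5p: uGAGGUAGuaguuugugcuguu
hsa-miR-200b-3p: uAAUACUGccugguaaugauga
hsa-miR-200c-3p: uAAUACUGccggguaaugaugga
hsa-miR-200a-3p: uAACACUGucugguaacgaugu
hsa-miR-141-3p: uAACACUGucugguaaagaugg
hsa-miR-205-5p: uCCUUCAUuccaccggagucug
The let-7i arm lies at chr12:62603691-62603712 on the plus strand, miR-200c at chr12:6963742-6963764, miR-141 at chr12:6964155-6964176, miR-200b at chr1:1167160-1167181, miR-200a at chr1:1167916-1167937 and miR-205 at chr1:209432166-209432187, all on the plus strand. Its seed GAGGUAG is shared with none of the other 5. The miR-200b and miR-200c arms share the seed AAUACUG, and miR-200a and miR-141 share AACACUG. None of these small RNAs is measured by this kind of array.

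The values are MAS5 signals, in arbitrary units, scaled to a common mean on each array. The background of each array was described in 2 ways. The median signal over all probe sets, 79.5 on the let-7i array and 88.0 on the empty vector array, was used as the floor below which a signal was not read as a level. The probe sets for spiked-in genes of Bacillus subtilis, 27 in number, have no human target and reached at most 47.7 on the let-7i array and 65.1 on the empty vector array, with medians of 10.3 and 9.84. A signal below the floor on 1 array was set to the floor, so that the fold is a lower bound ("at least"), and a probe set below the floor on both arrays got no fold. Log2 ratios are let-7i over empty vector, centred on the median of all probe sets measured on both arrays. The SD of the log2 ratio of 1 probe set, from pairs of probe sets of 5807 genes, was 0.25 over all signals. In 4 groups of equal size by signal it was 0.34 for the dimmest, 0.25 and 0.21 for the next, and 0.15 for the brightest. It covers probe noise only, not the spread between cultures.

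Epithelial character was checked on both arrays. Of 14 keratinocyte markers 9 had a probe set of their own, and 6 of these were above the floor, 5 lower and 1 higher with let-7i, with a median log2 ratio of -0.25. KRT15, a basal keratin, was 2.69-fold lower (1375 with let-7i and 3735 with the empty vector) and the desmosomal cadherin DSC3 1.39-fold lower (357 and 501). P-cadherin (CDH3) had a log2 ratio of -0.32, the integrin ITGB4 -0.18 and the desmosome-associated PERP -0.08 (11021 and 11744), and SFN, the 14-3-3 protein of epithelia, 0.04 (16192 and 15939). The ratios of ITGB4, PERP and SFN were within the probe noise at their signals (0.21 for ITGB4 and 0.15 for PERP and SFN). The basal keratins KRT5 (7.88 and 11.9) and KRT14 (9.85 and 29.3) and the cadherin DSG3 (29.1 and 58.9) were below the floor on both arrays. Fibroblast and leukocyte markers were mostly below the floor, and their values stand beside the results they touch.

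Of the 27 probe sets of the 9 factors, 10 were measured on both arrays, 5 were below the floor with the empty vector alone, 1 was below it with let-7i alone and 11 on both. Among the 9, SNAI2 and the ZEB genes had the highest ratios. SNAI2 was 1.88-fold higher with let-7i at bright signals, ZEB2 was 3.79-fold higher and ZEB1 at least 4.29-fold higher in their brightest probe sets. SNAI1 read the other way at signals near background, at least 1.33-fold lower. TCF4 was higher by a small amount in many probe sets, TWIST1 and TWIST2 differed by less than the probe noise, and FOXC2 and PRRX1 were below the floor throughout. Signals were taken from whole cultures, so more cells of a kind and more RNA per cell cannot be told apart.

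**Figure D1:**
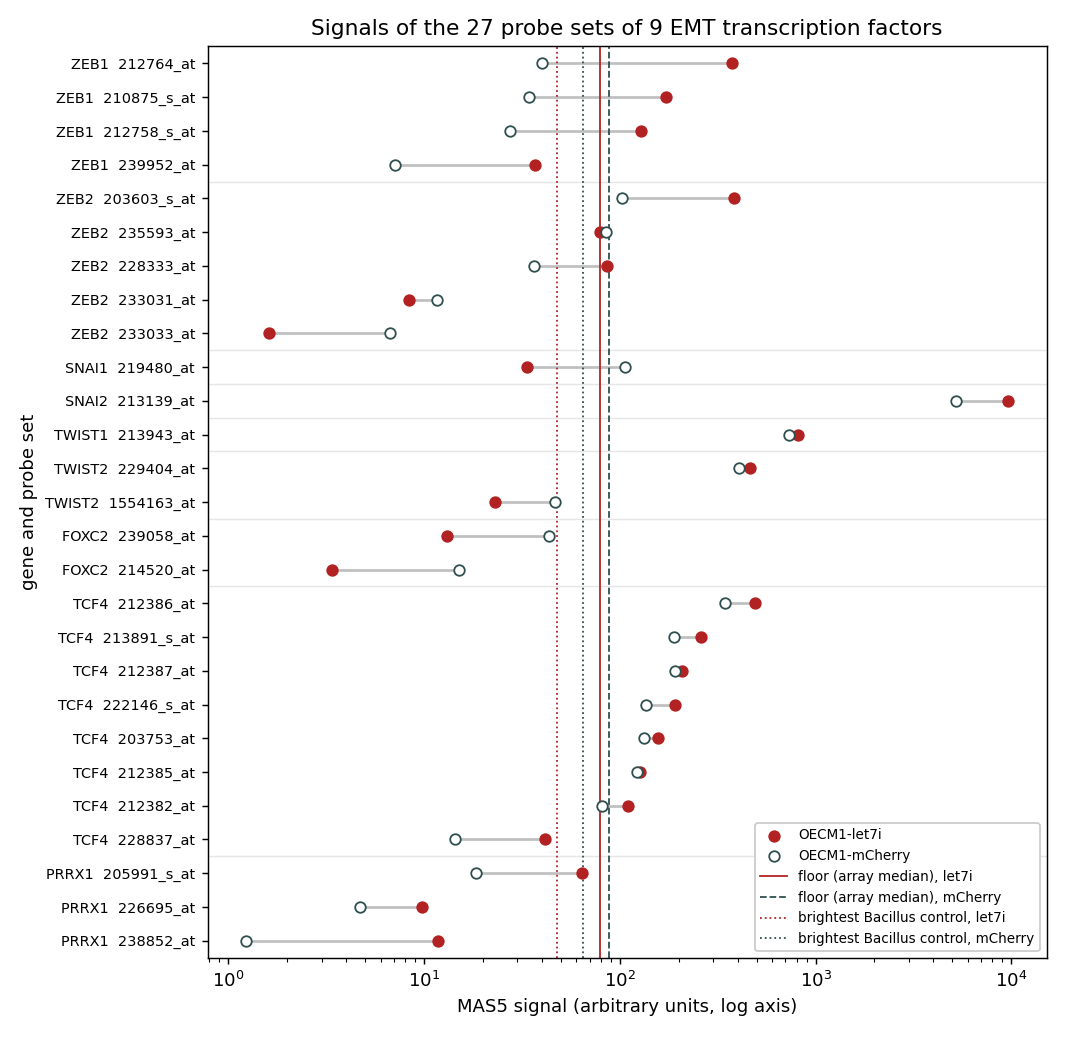
MAS5 signal (log axis, arbitrary units) of each of the 27 probe sets on the let-7i array (filled circles) and the empty vector array (open circles), with the floor of each array (79.5 and 88.0) and its brightest Bacillus control (47.7 and 65.1) as vertical lines. All 4 ZEB1, all 8 TCF4 and all 3 PRRX1 probe sets were brighter with let-7i, SNAI2 lay far above both floors, and SNAI1 and both FOXC2 probe sets were dimmer with let-7i.

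Counted by probe set, 2 of the 16 above the floor on at least 1 array were at least 2-fold higher with let-7i (212764_at of ZEB1 and 203603_s_at of ZEB2) and 0 were at least 2-fold lower. Over all named probe sets above the floor on at least 1 array, the shares past 2-fold were 1.07% higher and 1.3% lower. At 1.5-fold, 4 of the 16 were higher and 0 lower, against 4.44% higher and 6.3% lower over all probe sets. The further ones were 210875_s_at of ZEB1 and the probe set of SNAI2. All 10 that were measured on both arrays had a log2 ratio above 0, where 50% of all probe sets measured on both arrays did. Since 6 of the 10 belong to TCF4 and read the same gene, they are not 10 independent readings. Counted by gene through the brightest probe set, 7 of the 9 factors were above the floor. Of these, 6 were higher and 1 lower, where 51.4% of all 12284 genes above the floor were higher. At 2-fold, 2 of the 7 were higher, against 1.15% of all genes. At 1.5-fold, ZEB1, ZEB2 and SNAI2 were higher and 0 of the 7 lower, against 4.49% and 5.58% of all genes. The median log2 ratio of these 7 genes was 0.53, beside 0.0078 over all genes. It is the value of the brightest TCF4 probe set, the highest of that gene. Over the 10 member probe sets measured on both arrays the median was 0.36.

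ZEB1 had 4 probe sets, and all 4 were brighter with let-7i and below the floor with the empty vector. The brightest, 212764_at, had a signal of 374 with let-7i and 40.0 with the empty vector, a difference of at least 4.29-fold (log2 bound 2.10). The next, 210875_s_at, read 173 with let-7i and 34.2 with the empty vector, at least 1.99-fold higher. The 212758_s_at probe set read 128 with let-7i and 27.5 with the empty vector, at least 1.47-fold higher. The fourth, 239952_at, stayed below the floor on both arrays (36.8 with let-7i and 7.11 with the empty vector). With the empty vector every ZEB1 signal was also below the brightest Bacillus control, so ZEB1 messenger was not told apart from background there. With let-7i, 3 of the 4 signals exceeded the brightest Bacillus control of that array. Among all probe sets below the floor with the empty vector alone, 5.43% had a bound of at least 2-fold.

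The antisense transcript ZEB1-AS1, which starts beside ZEB1 on the opposite strand, read 274 with let-7i and 236 with the empty vector, a log2 ratio of 0.23. This is less than the probe noise of the dimmest group (0.34). ZEB2-AS1, the other antisense transcript listed, is not reported here.

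ZEB2 had 5 probe sets, of which 1 gave a direction. The 203603_s_at probe set read 383 with let-7i and 102 with the empty vector, a log2 ratio of 1.92, measured on both arrays and larger than the probe noise at such signals (0.34). Its signal with the empty vector was 1.16 times the floor. The 228333_at probe set read 85.7 with let-7i and 36.4 with the empty vector, just above the floor with let-7i, and its bound left the direction open. The 235593_at probe set, just under the floor on both arrays, read 79.5 with let-7i and 85.2 with the empty vector. The remaining 233031_at (8.34 and 11.6) and 233033_at (1.62 and 6.70) were among the dimmest of the 27. The 3.79-fold difference of ZEB2 therefore rests on 1 probe set, whose suffix marks that it can match more than 1 transcript.

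SNAI2 had 1 probe set, 213139_at, which read 9663 with let-7i and 5191 with the empty vector. The log2 ratio was 0.91, a 1.88-fold higher level, against a probe noise of 0.15 at bright signals. Of 1891 probe sets whose mean signal was within 2-fold of it, 35 (1.85%) were at least 1.5-fold higher. Its signals were far above the floor on both arrays (122 times it with let-7i and 59.0 times with the empty vector), and the ratio stayed between 0.86 and 0.93 under all 7 other scalings, floors and probe set choices.

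SNAI1 also had 1 probe set, 219480_at, which read 33.6 with let-7i and 107 with the empty vector. It was above the floor with the empty vector alone, so the difference is a bound of at least 1.33-fold lower (log2 bound -0.41). The signal with let-7i was below the brightest Bacillus control of that array, and that with the empty vector was 1.64 times the brightest of its own. Of all probe sets below the floor with let-7i alone, 7.65% had a bound of at least 2-fold lower. With the brightest Bacillus control as the floor, the SNAI1 bound was -1.14, past 2-fold. The SNAI1 signal with the empty vector was 1.21 times the floor, and the size of the bound (0.41) was little above the probe noise of the dimmest group (0.34). The paralogs SNAI1 and SNAI2 thus read in opposite directions in 1 probe set each, SNAI1 at signals near background and SNAI2 at bright ones.

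TWIST1 read 815 with let-7i and 732 with the empty vector in its 1 probe set, a log2 ratio of 0.17. TWIST2 read 464 with let-7i and 408 with the empty vector in 229404_at, a log2 ratio of 0.20. Its second probe set, 1554163_at, was below the floor on both arrays (23.0 and 46.7). Both ratios were smaller than the probe noise at these signals (0.25), so no difference in either TWIST gene could be read at this precision.

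TCF4 had 8 probe sets, the most of the 9 genes, and all 8 were brighter with let-7i. The brightest, 212386_at, read 493 with let-7i and 344 with the empty vector, a log2 ratio of 0.53. The 213891_s_at probe set read 260 with let-7i and 188 with the empty vector (0.48), and 222146_s_at read 192 and 136 (0.51). Smaller ratios came from 203753_at (157 and 133, log2 ratio 0.24), 212387_at (208 and 191, log2 ratio 0.14) and 212385_at (127 and 122, log2 ratio 0.07). The 212382_at probe set did not reach the floor in empty vector cells (111 and 80.9, at least 1.27-fold higher), and 228837_at was below it on both arrays (41.3 and 14.4). Over the 6 probe sets measured on both arrays the ratios had an SD of 0.21, and none reached 1.5-fold. Of 442 genes with at least 5 probe sets measured on both arrays, 29 (6.56%) had all of them higher and 44 (9.95%) all lower.

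FOXC2 and PRRX1 gave no fold. The FOXC2 probe sets read 13.0 and 3.38 with let-7i, against 43.5 and 15.1 with the empty vector, in 239058_at and 214520_at. The PRRX1 probe sets read 64.3, 9.81 and 11.8 with let-7i, against 18.4, 4.73 and 1.23 with the empty vector, in 205991_s_at, 226695_at and 238852_at. Only 205991_s_at with let-7i exceeded the brightest Bacillus control of its array. Signals this dim differ widely without a call, since 41.1% of the 17178 named probe sets below the floor on both arrays had raw signals at least 2-fold apart, 16.8% higher and 24.4% lower with let-7i.

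**Figure D2:**
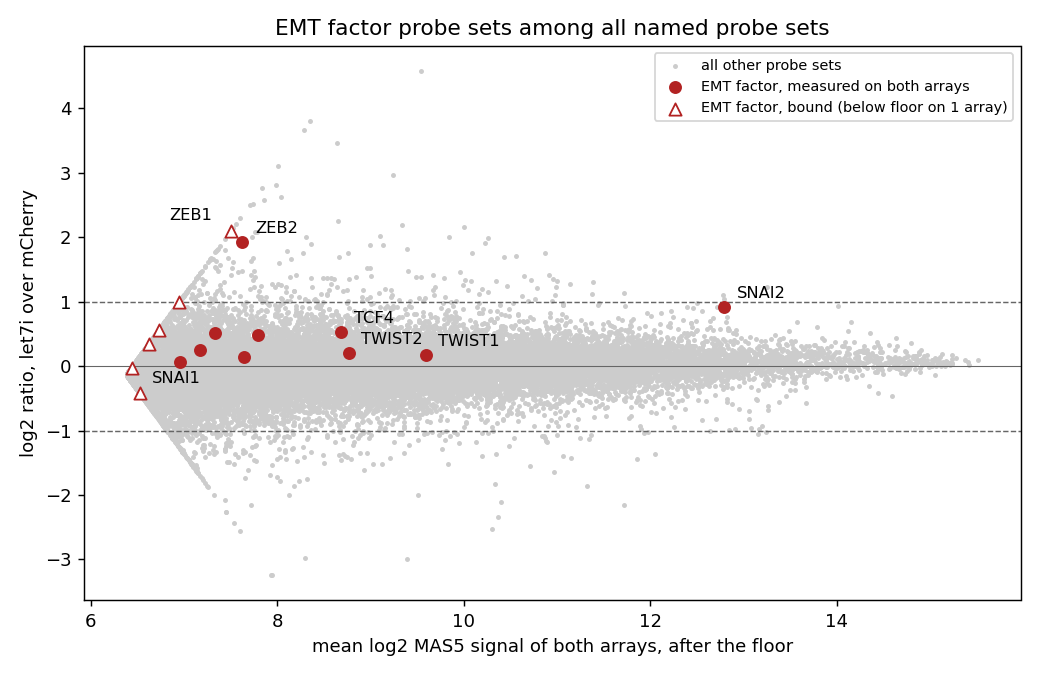
Log2 ratio (let-7i over empty vector) against the mean log2 signal after the floor, for all named probe sets above the floor on at least 1 array (grey) and the 16 of the EMT factors (red circles measured on both arrays, open triangles bounds). Dashed lines mark 2-fold. ZEB1 (bound 2.10) and ZEB2 (1.92) lie past 2-fold at dim signals, and SNAI2 (0.91) lies near the upper edge of the bright probe sets.

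The floor decided much of what could be read of the dim factors. With each array's 25th percentile as the floor (19.0 with let-7i and 22.2 with the empty vector), 3 ZEB1 probe sets were measured on both arrays, with log2 ratios of 3.25, 2.37 and 2.25, and SNAI1 had -1.64. At that floor 205991_s_at of PRRX1 had a bound of 1.56 and 239058_at of FOXC2 a bound of -1.16. The 228333_at probe set of ZEB2, open in direction at the higher floor, was then measured on both arrays at 1.27, and 235593_at of ZEB2 at -0.07. The 1554163_at probe set of TWIST2 had -0.99, opposite in direction to 229404_at. At the 65th percentile (214 and 229), ZEB1 had a bound of 0.71 and ZEB2 of 0.74, both under 2-fold and below the 0.89 of SNAI2, and SNAI1 had no value. SNAI2, TWIST1 and the brightest probe sets of TWIST2 and TCF4 moved by less than 0.1 under any of the 3 other floors. Without centring, with lowess centring and after quantile normalization no ratio of a member probe set changed sign apart from that of 228333_at of ZEB2, whose direction was open.

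**Figure D3:**
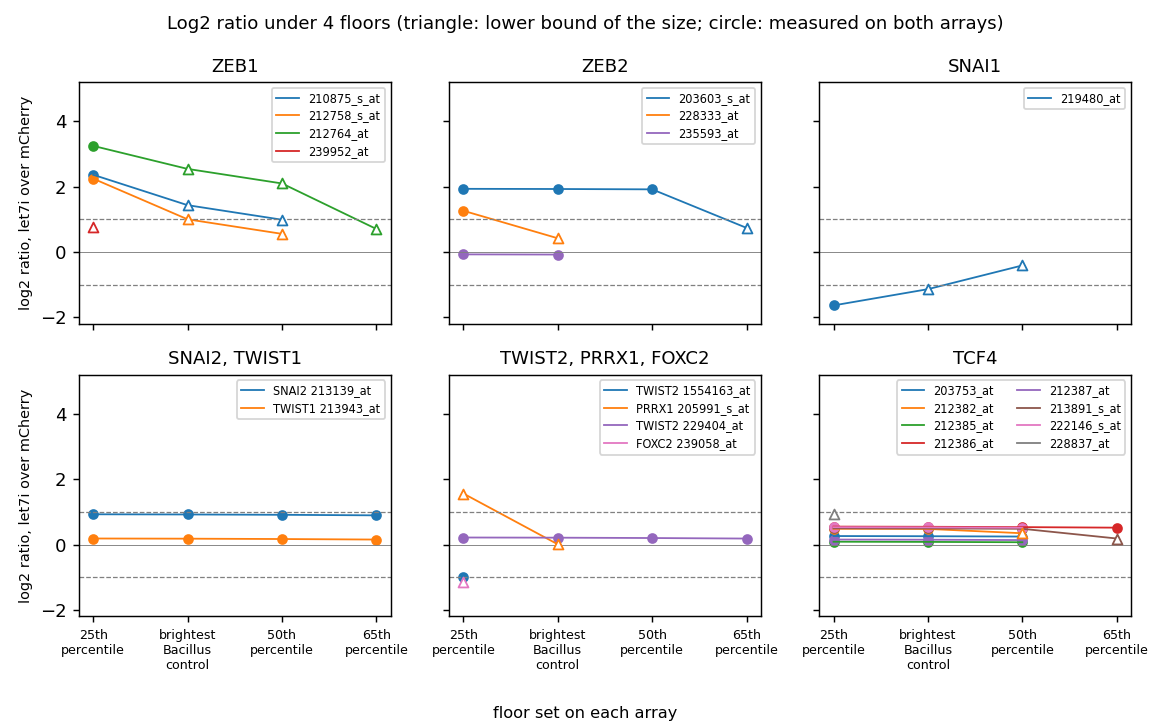
Log2 ratio (let-7i over empty vector) of the member probe sets under 4 floors, from the 25th to the 65th percentile of each array; circles are measured on both arrays, triangles are lower bounds of the size, and dashed lines mark 2-fold. ZEB1 runs from 3.25 to a bound of 0.71 and SNAI1 from -1.64 to a bound of -0.41, while SNAI2 stays near 0.9 and TWIST1 near 0.2.

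The partners of the factors were described next. TWIST proteins and TCF4 act as dimers with other E proteins, and the ID proteins block E proteins by forming dimers that cannot bind DNA. Of 8 such genes 5 were above the floor, 3 higher and 2 lower with let-7i, with a median log2 ratio of 0.15. Over all genes above the floor 51.4% were higher. ID3 read 719 with let-7i and 1908 with the empty vector in its 1 probe set above the floor, a 2.63-fold lower level. ID1 read 3777 and 3425 (log2 ratio 0.15) and ID2 was below the floor on both arrays (42.6 and 33.2). The E proteins TCF12 (1578 and 1405, log2 ratio 0.18) and TCF3 (1667 and 1741, log2 ratio -0.05) differed little in their brightest probe sets. The 10 TCF3 probe sets above the floor ranged from -0.26 to 0.46. HAND1, a basic helix-loop-helix factor of the heart and placenta, was 1.39-fold higher at dim signals (136 and 99.1). The relatives SNAI3 (28.0 and 7.82), SCRT1 (17.6 and 28.9) and PRRX2 (14.6 and 13.8) were below the floor on both arrays. SOX9, listed with them though of another family, was 1.15-fold higher (2665 and 2330).

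The co-repressors and chromatin enzymes that the factors recruit differed little. Of 24 genes 23 had a probe set of their own and were above the floor. Of these, 14 were higher and 9 lower, where 51.4% of all genes above the floor were higher. None passed 2-fold, and the median was 0.061 with a range from -0.24 to 0.24. CTBP1, the co-repressor of ZEB1 and ZEB2, read 5137 with let-7i and 4971 with the empty vector (log2 ratio 0.06), and its paralog CTBP2 read 4295 and 4411 (-0.03). EZH2, the Polycomb methyltransferase, was 1.18-fold lower, HDAC1, a histone deacetylase, 1.16-fold lower, and AJUBA, a LIM protein that bridges SNAI1 to its cofactors, 1.18-fold higher. SUV39H1 and KMT5A, both histone methyltransferases, were 1.17-fold higher each, and LIMD1, a relative of AJUBA, was 1.16-fold higher. The probe sets of KMT5A and LIMD1 disagreed in direction.

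Genes that act on the stability or location of the SNAI1 and TWIST1 proteins leaned a little higher in their brightest probe sets. Of 22 genes 20 were above the floor, 17 higher and 3 lower, where 51.4% of all genes above the floor were higher, and the median was 0.17 with none past 2-fold. That median is less than the probe noise of 1 probe set over all signals (0.25). It was 0.10 with the mean of each gene's probe sets and 0.092 without probe sets that can match several transcripts. SIAH2, a ubiquitin ligase, read 1167 with let-7i and 676 with the empty vector, 1.74-fold higher in its 1 probe set. The phosphatase CTDSP1 was 1.27-fold higher, the Hippo kinases LATS1 and LATS2 were 1.21-fold and 1.18-fold higher, the deubiquitinase USP9X was 1.19-fold higher and the phosphatase subunit PPP2CA 1.18-fold. Of these, LATS2, USP9X and PPP2CA had probe sets in both directions. GSK3B, the kinase that marks SNAI1 for destruction, had a log2 ratio of 0.07 (1813 and 1742), with 4 probe sets from -0.15 to 0.26.

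Among the inducers of the factors, 19 of 22 were above the floor, 15 higher and 4 lower, with a median of 0.14, where 51.4% of all genes were higher. HMGA2 and ETS1 passed 2-fold upward, as did 1.15% of all genes. HMGA2, a chromatin protein that activates SNAI1 and TWIST1 in mammary epithelial cells and is a known let-7 target, read 3148 with let-7i and 1251 with the empty vector. This was 2.54-fold higher by the brightest of 4 probe sets. All 4 were higher, with log2 ratios from 0.14 to 1.34, the brightest being the largest. SNAI1 stood at 33.6 and 107 on the same arrays, near background, and a link between HMGA2 and SNAI1 was not tested. ETS1, a transcription factor reported to raise ZEB1 and ZEB2 in mouse mammary epithelial cells, read 3236 with let-7i and 1304 with the empty vector. This was 2.50-fold higher by the brightest of 3 probe sets, all of them higher, with log2 ratios from 0.43 to 1.32. LOX, a lysyl oxidase, was 1.81-fold higher (683 and 380) and higher in 3 probe sets. EGR1 was at least 1.44-fold higher in its brightest probe set but lower in its other probe set, the Notch ligand JAG1 was 1.26-fold higher and beta-catenin (CTNNB1) 1.22-fold, with 1 of its 3 probe sets higher and 2 lower. The TGF-beta ligands, receptors and SMADs of the list were not among its largest differences.

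The miR-200c host transcript MIR200CHG and the miR-205 host MIR205HG were added after the annotation had been seen. MIR200CHG read 117 with let-7i and 104 with the empty vector, a log2 ratio of 0.18 in a probe set that can match several transcripts. MIR205HG read 43.6 with let-7i and 92.4 with the empty vector, at least 1.15-fold lower. Both lay near the floor, and neither gives the level of the mature microRNA.

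Epithelial genes reported as repressed by ZEB, Snail or Twist factors were lower with let-7i in most cases. Of 30 genes 27 had a probe set of their own and 26 were above the floor, 22 of them lower and 4 higher. At 2-fold, 4 were lower and 0 higher. The median log2 ratio was -0.51, beside 0.0078 over all genes, of which 47.3% were lower and 1.32% at least 2-fold lower. The list was drawn up with lower epithelial genes in these data already known, so the contrast is no independent support. OCLN, the tight junction protein occludin, read 360 with let-7i and 975 with the empty vector, 2.69-fold lower by the brightest of 3 probe sets, all of them lower. ST14, the membrane protease matriptase, was 2.64-fold lower (259 and 692), CGN, the junction plaque protein cingulin, 2.10-fold lower (255 and 540) and RAB25, an epithelial vesicle GTPase, 2.04-fold lower (661 and 1363). The other CGN probe set had a log2 ratio of -0.29. MARVELD3, a tight junction protein, was 1.94-fold lower and lower in all 3 probe sets, and the splicing factor ESRP1, a known target of ZEB1 repression, was 1.76-fold lower (1802 and 3198), with its second probe set also lower. CDH1 read 5090 with let-7i and 6785 with the empty vector, 1.32-fold lower. Its log2 ratios were -0.54 and -0.40 over 2 probe sets. The 4 members that were higher were CLDN1, TJP1, DSP and MUC1, named after their values were seen, with log2 ratios of 0.28, 0.17, 0.12 and 0.39.

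Epithelial transcription factors that oppose EMT also leaned lower, though less evenly. Of 16 genes 11 were above the floor, 7 lower and 4 higher, with a median of -0.52. Over all genes 47.3% were lower, though this list too was drawn up with earlier results of these data known. At 2-fold, 2 were lower and 1 higher, against 1.32% and 1.15% of all genes. The median was -0.12 with the mean of each gene's probe sets and -0.23 without probe sets that can match several transcripts. ELF3, an ETS factor of epithelia, read 1312 with let-7i and 3496 with the empty vector, 2.64-fold lower and lower in all 3 probe sets. OVOL1, a zinc finger repressor of ZEB1, was 2.13-fold lower (187 and 402), and its paralog OVOL2 was 1.21-fold lower (715 and 872) with a second probe set at 0.03. GRHL1, a grainyhead factor, was 1.93-fold lower, GATA3 1.55-fold lower with 1 of 3 probe sets higher, and FOXA1, a forkhead factor, 1.53-fold lower. EHF, an ETS factor related to ELF3, went the other way (1120 and 408, 2.77-fold higher), with 5 probe sets from 0.11 to 1.47.

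Mesenchymal genes raised in EMT were split. Of 33 genes 21 were above the floor, 12 higher and 9 lower, and the median was 0.28. Over all genes above the floor 51.4% were higher, so the direction count was near that share. At 2-fold, 6 were higher and 1 lower, against 1.15% and 1.32% of all genes. Higher mesenchymal genes in these data were known when the list was drawn up, so this is no independent support. VIM, the intermediate filament vimentin, read 22705 with let-7i and 11965 with the empty vector, 1.92-fold higher. Its log2 ratios were 0.94 and 1.61 over 2 probe sets. The collagen VI gene COL6A1 was 7.77-fold higher (1673 and 217) in the brightest of 5 probe sets, with log2 ratios from 1.01 to 2.96. ITGA5, a fibronectin receptor subunit, was 2.66-fold higher. POSTN (at least 3.49-fold), MMP2 (at least 2.71-fold) and SPARC (at least 2.62-fold), all secreted matrix proteins or proteases, were below the floor with the empty vector. The other SPARC probe set above the floor had a log2 ratio of 0.019. TNC, tenascin C, was 2.62-fold higher. FN1, fibronectin, read 6767 with let-7i and 13894 with the empty vector, 2.03-fold lower and lower in all 5 probe sets. N-cadherin (CDH2), at 27.9 and 49.9, reached neither floor.

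**Figure D4:**
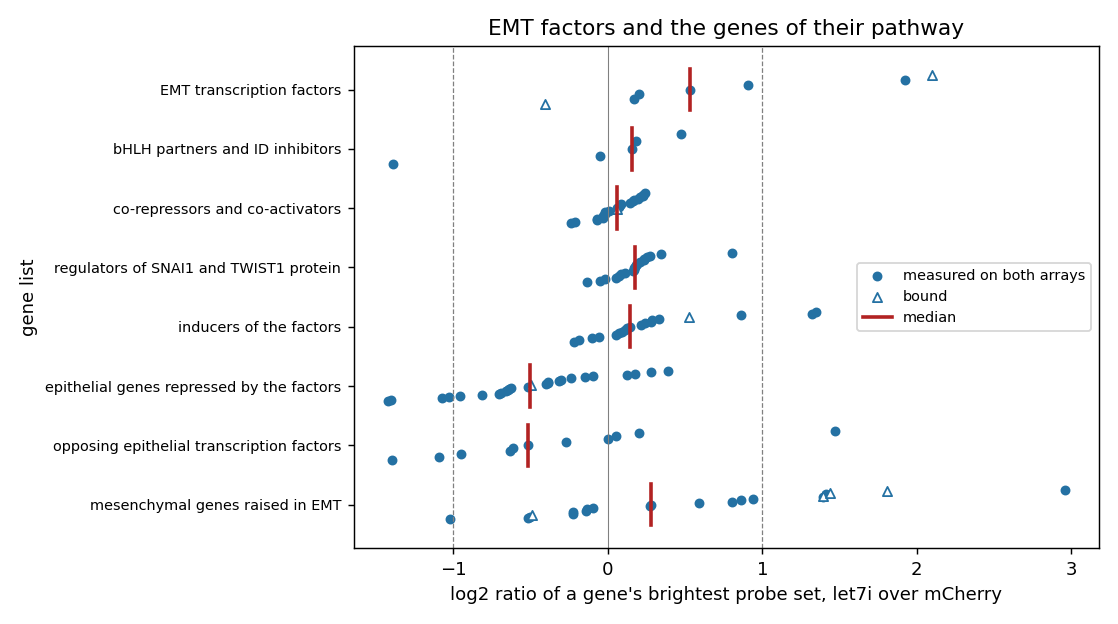
Log2 ratio (let-7i over empty vector) of the brightest probe set of each gene above the floor, by gene list, with circles for genes measured on both arrays, triangles for bounds, red bars for medians and dashed lines at 2-fold. The EMT factors have a median of 0.53 (the brightest probe set of TCF4) and the mesenchymal genes 0.28. The repressed epithelial genes have -0.51 and the opposing epithelial factors -0.52 (-0.12 with the mean of each gene's probe sets). The lists were drawn up with earlier results of these data known.

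ZEB1, ZEB2, TWIST2, PRRX1 and TCF4 are also expressed in fibroblasts, and ZEB2 and TCF4 in leukocytes, so markers of these cells were set beside them. Of 12 fibroblast markers, 2 of which (TWIST2 and PRRX1) are EMT factors, 5 were above the floor, 4 higher and 1 lower. Over all genes above the floor 51.4% were higher and 47.3% lower. DCN, a matrix proteoglycan, was 1.99-fold higher with let-7i (322 and 163), FAP, a surface protease, 1.72-fold higher (392 and 230), COL1A1, a chain of type I collagen, 1.21-fold higher (415 and 346) and FBLN1, a matrix glycoprotein, 1.58-fold lower (2321 and 3695). The markers COL1A2 (11.1 and 54.8), COL3A1 (35.3 and 8.68), LUM (20.3 and 29.0), PDGFRA (26.3 and 24.4), PDGFRB (52.8 and 14.2) and THY1 (63.1 and 58.7) were below the floor on both arrays in their brightest probe sets. The summed signal of the 12 was 4187 with let-7i and 5051 with the empty vector. Without FBLN1, a choice made after the values were seen, the other 11 summed to 1866 with let-7i and 1355 with the empty vector. The median log2 ratio of those above the floor was 0.27, and -0.22 without probe sets that can match several transcripts. Of 10 leukocyte markers with a probe set of their own 3 were above the floor and lower, CD3E (90.4 and 173), CD79A (164 and 179) and CSF1R (71.6 and 109), with PTPRC, the common leukocyte antigen, below it on both (58.3 and 55.8). Their summed signal was 594 with let-7i and 734 with the empty vector. The part of other cells in the results was not tested. Of the endothelial markers 1 of 9 was above the floor (PECAM1, log2 ratio 0.23, with 2 of 3 probe sets lower), and of the melanocyte and neural crest markers MITF (-0.0019) and EDNRB (-0.62) were.

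Promoter sequences were searched for the E-box that ZEB and Snail factors bind, CAGGTG, which reads CACCTG on the other strand. The RefSeq windows (GRCh38.p14) run from 250 bases before to 50 bases after each annotated start, and 24.1% of 27305 genes had a match in at least 1 window, as did 20.6% of 35116 windows. Of the 17 repressed epithelial genes with a window, 13 (76.5%) had a match, in 15 of 26 windows (57.7%). Such genes became known as targets partly through their E-boxes, so this share describes the list and is no finding about it. The opposing factors had a match in 4 of 11 genes, the mesenchymal genes in 4 of 22, and the EMT factors in 1 of 5, namely ZEB1, with matches in 2 of its 7 windows. CGN, GRHL1 and GATA3 had windows without a match. Among the genes with no window, and so not searched, were CDH1, ST14, ESRP1, MARVELD3, EPCAM, OVOL1 and OVOL2. The same held for SNAI1, SNAI2, TWIST1 and FOXC2. Of the repressed-list members that were higher with let-7i, MUC1, DSP and TJP1 had a match and CLDN1 had none. Matches were thus found in lower and higher members alike.
These E-boxes (capitals), upstream of the start, are shown for ZEB1 and for named epithelial genes that were lower with let-7i.
ZEB1, chr10:31318348-31318377, plus strand: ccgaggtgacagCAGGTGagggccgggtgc
ZEB1, chr10:31319119-31319148, plus strand: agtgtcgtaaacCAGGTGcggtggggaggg
OCLN, chr5:69492502-69492531, plus strand: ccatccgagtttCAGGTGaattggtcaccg
OCLN, chr5:69492645-69492674, plus strand: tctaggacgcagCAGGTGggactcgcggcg
RAB25, chr1:156061107-156061136, plus strand: catctctccaccCACCTGggccccaggtct
ELF3, chr1:202010455-202010484, plus strand: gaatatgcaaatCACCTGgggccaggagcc
FOXA1, chr14:37595354-37595383, minus strand: gcggccgccttgCAGGTGcacctcgggctt
The first base of the E-box lies 57 and 85 bases before the starts for the ZEB1 windows in the order shown, 33 and 133 for OCLN, 41 before RAB25, 120 before ELF3 and 122 before FOXA1. A match describes the letters only, and binding was not measured.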

How the data were processed

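Biotin-labelled cRNA made from total RNA of 2 cultures was hybridised, per the labels' protocols. The authors deposited an intensity for each probe set of both arrays, computed with MAS5, per the submitters' processing notes, with version and settings not given in the sources used here. Because MAS5 takes off the mismatch signal, dim values are noisy, and the common scale removes any difference in total RNA. No detection calls were used.

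Of 54675 probe sets 41097 carried 1 gene symbol in the platform annotation and were used, and 41043 of their IDs were found in RefSeq (GRCh38.p14). The floor was the 50th percentile of each array. Log2 ratios were centred on the median of probe sets measured on both arrays (a shift of -0.013), and calls were by size at 2-fold. A gene outside the 9 was represented by its brightest probe set. Named genes are the 9 factors, in each list, at most 6 members ranked by the size of the log2 ratio and a few set by name. The 9 members and the 15 gene lists, assembled from background knowledge, were chosen with earlier results of these data known, among them the lower epithelial and higher mesenchymal genes, which are no independent support here. The 10 alternatives changed centring, scaling, floor, probe sets or threshold. Calls by size were tested on simulated data. Scripts ran in Python 3.11.15 with pandas 2.3.3 and NumPy 2.4.6, lowess in statsmodels 0.14.6, and figures in Matplotlib 3.10.9. The number of arrays limits the precision.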

Additional observations from a re-analysis of the deposited data

How the results depend on the processing

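No paired analysis was possible because each group had 1 array, and no replicate could be left out. The number of EMT factor probe sets at least 2-fold higher was 2, and it was 0 with the floor at the 65th percentile, 6 at the 25th, 4 at the brightest Bacillus control, 4 at a 1.5-fold threshold and 1 without probe sets that can match several transcripts. It was 3 with lowess centring and 3 after quantile normalization. The number at least 2-fold lower was 2 with the floor at the 25th percentile and 1 at the Bacillus control, against 0. Counted by gene, 2 factors were at least 2-fold higher, 0 with the floor at the 65th percentile, and 1 with the mean of a gene's probe sets and 1 without shared probe sets. With the floor at the 25th percentile 3 were higher and 2 lower, at the Bacillus control 2 and 1, and at a 1.5-fold threshold 3 and 0. Over all genes, 141 were higher and 162 lower, but 678 and 1071 at the 25th percentile and 63 and 69 at the 65th. They were 190 and 311 at the Bacillus control and 551 and 685 at 1.5-fold (4.49% and 5.58%). With the mean of a gene's probe sets they were 110 and 139, and without shared probe sets 118 and 127. Fewer dim signals are set to the floor when it is lower. Over all named probe sets, 255 were higher and 312 lower, but 1430 and 2224 at the 25th percentile, 103 and 116 at the 65th, 354 and 620 at the Bacillus control, 1061 and 1508 at 1.5-fold and 59 and 43 at 3-fold. As shares of probe sets above the floor in use, 1.07% were higher and 1.3% lower. The shares were 4.17% and 6.48% at the 25th percentile, 0.593% and 0.668% at the 65th, and 1.3% and 2.27% at the Bacillus control. At 1.5-fold they were 4.44% and 6.3%. With lowess centring they were 1.2% and 1.07%, as after quantile normalization, and without shared probe sets 1.1% and 1.27%. The median of the opposing epithelial factors was -0.12 with the mean of probe sets and -0.23 without shared ones (the cause was not tested). The median of the repressed epithelial genes lay between -0.63 and -0.50 and that of the mesenchymal genes between 0.15 and 0.39 under all settings tried. The leukocyte median was -0.097 with the floor at the 25th percentile, the fibroblast median -0.22 without shared probe sets and the endothelial value -0.068 with the mean of probe sets.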
